A study of Mus musculus with 24 samples.

Results

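The genes described here encode the proteins of the mitochondrial ribosome. They were all genes of the array's probe table whose symbol starts with MRPL or MRPS followed by a digit, with the probe set of the highest mean over 24 arrays taken for each gene. The rule found 78 of the 14884 genes with a symbol, measured by 87 probe sets. Of the 78, 73 encode proteins of the large subunit (50 genes) or the small subunit (23 genes). The other 5 are antisense transcripts or pseudogenes that carry a matching symbol (MRPL20-AS1, MRPL23-AS1, MRPL42P5, MRPL45P2 and MRPS31P5), and they are kept apart below. MRPS18A and MRPS30 carry small-subunit names, yet their proteins sit in the large subunit, where they were counted. No filter on low values was applied, so every member was tested.

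Mitochondria translate their own small genome on a dedicated ribosome, and its protein products are core subunits of the respiratory chain and of ATP synthase. The ribosomal RNAs come from mitochondrial DNA, whereas all the ribosomal proteins are encoded in the nucleus, made in the cytosol and imported. Many of these proteins descend from bacterial ribosomal proteins, and many others were gained by mitochondria and have no bacterial counterpart. Here 43 of the 73 proteins have a bacterial counterpart and 30 do not.

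The samples were subcutaneous tumours of MM.1S, 1 human multiple myeloma cell line, grown with Matrigel in CB17-SCID mice, which lack functional T and B cells. The series asks what filanesib, an inhibitor of the kinesin spindle protein, adds to pomalidomide and dexamethasone. The 8 groups of 3 arrays were compared, all from tumours of the same line and host. They were Filanesib plus Pomalidomide plus Dexamethasone (the triple combination), Filanesib plus Pomalidomide, Filanesib plus Dexamethasone, Pomalidomide plus Dexamethasone, Filanesib (10 mg/kg), Pomalidomide (8 mg/kg), Dexamethasone (0.5 mg/kg, spelled Dexametasone in some labels) and Control, with drugs given for 2 days at the same doses in every combination. Pomalidomide is a cereblon-binding immunomodulatory drug and dexamethasone a glucocorticoid. The control is labelled as no treatment in 1 field, while the treatment protocol describes PBS vehicle. Whether arrays came from different animals is not stated, and the p-values cover the spread between these arrays alone.

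Values are log2 expression levels after RMA, whose quantile step brings the arrays close to 1 distribution and so hides any shift that most genes share. The medians of the arrays over all probe sets still ran from 3.65 to 3.73. In a bulk tumour, fewer cells of a type and less RNA per cell cannot be told apart. Mouse is the organism in the labels but the probes are for human genes, so levels come from the human tumour plus any mouse RNA that cross-hybridised. The 6 plasma cell markers measured were bright, at 9.25 to 11.1, whereas the 3 endothelial and 2 fibroblast markers did not exceed 3.97. Of the 5 macrophage markers CD68 reached 9.49, with a median of 3.07 over the 5, and the brighter of 2 T and NK cell markers reached 5.04. The 3 arrays of pomalidomide alone stood apart, with a residual SD over all genes of 0.238 to 0.354, against 0.155 to 0.221 in the other 21 arrays. Several results on pomalidomide, though not those on cell type markers, are therefore also given without 2 of these arrays. That leaves 1 array of pomalidomide alone and so less precision.

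The 73 genes were expressed above most genes of the array. Their mean levels had a median of 6.64, against 4.78 over all genes, and 70 of the 73 genes lay above 4.78. Signals of different probe sets are not strictly comparable, so the order is one of array signal. MRPS21 (10.03), MRPL37 (8.96), MRPS34 (8.90) and MRPS15 (8.67) were the brightest. MRPL52 (4.03), MRPL22 (4.38), MRPL23 (4.61) and MRPS31 (4.84) were the dimmest.  The small-subunit genes had a median level of 6.72 and the large-subunit genes one of 6.53.

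The members varied little between the 8 groups. The range of a gene's 8 group means had a median of 0.33 over the 73 genes, which is close to the 0.33 over all genes, and the median SD within a group was 0.14. The widest ranges belonged to the pseudogene MRPL42P5 (0.81), to MRPL42 (0.70), to MRPL54 (0.68) and to MRPL11 (0.64). MRPL11, whose bacterial counterpart forms the base of the factor-binding stalk, averaged 7.13 ± 0.30 under filanesib alone, its highest group mean, and 6.49 ± 0.33 under pomalidomide plus dexamethasone, its lowest (SD, n = 3 each). MRPL42P5 lay at 3.60, below the median of 3.68 over all probe sets, and its SD within groups had a median of 0.39. It is a pseudogene of MRPL42, and transcripts of these near-identical copies may not be told apart, so its values are uncertain.

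Within an array, the 73 genes often lay on the same side of their own means. Each gene's mean over the 24 arrays was subtracted from its level, and the median of these deviations was taken per array. It was 0.278, 0.024 and 0.103 in the 3 filanesib arrays, against 0.044, 0.008 and -0.064 in the 3 control arrays. In the first filanesib array 69 of the 73 genes lay above their own mean, the highest number of the 24 arrays. The triple combination gave 0.007, 0.086 and -0.224, against -0.119, 0.046 and -0.089 under pomalidomide plus dexamethasone. In the last of its 3 arrays 9 of the 73 genes lay above their mean, the lowest number of the 24 arrays. Replicates of 1 group thus differed by as much as 0.310 in this median, while the mean of the 8 groups ran from -0.054 to 0.135. The SD within groups, pooled over the 8 groups, was 0.090.

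**Figure D1:**
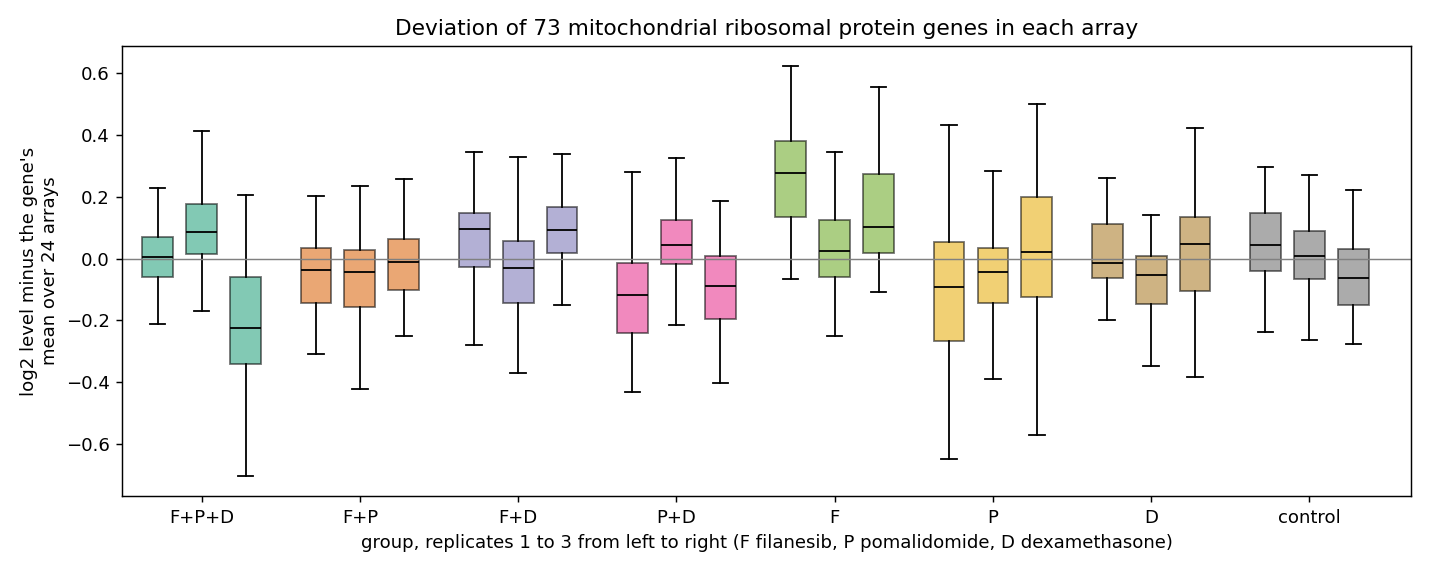
Deviation of the 73 genes from their own means over 24 arrays (log2, vertical axis), 1 box per array, in the order of the 8 groups on the horizontal axis; a box spans the quartiles of the genes, its line is the median, and whiskers reach 1.5 times the box height at most. The first filanesib array stands highest, with a median of 0.278, and the third array of the triple combination lowest, with -0.224.

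Filanesib was set against its absence over all 4 backgrounds formed by the other drugs, 12 arrays against 12. Of the 78 members 1 rose, MRPL51, and none fell, where 1.25% of all genes rose. The share of members that rose was close to that of all genes. The list of 73 subunit genes had a median slightly above 0. The difference was above 0 for 52 of them (71.2%), against 49.2% of all genes and 59.8% of the 7442 bright genes, those above the median level. The median difference was 0.066 in the 73 genes, -0.002 over all genes and 0.027 over the bright genes. After quantile normalization again over the named genes, the median of the 73 genes was 0.030, with 42 of them above 0. The median was 0.066 in the small (17 of 23 genes above 0) and 0.065 in the large (35 of 50). It was 0.061 for genes with a bacterial counterpart and 0.068 for genes without one. At an unadjusted p under 0.05, 11 members were higher and 0 lower. Counts at this unadjusted p, here and below, stand without the share over all genes. They are therefore not read as a trait of the members.

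MRPL51 encodes a large-subunit protein without bacterial counterpart. Its level was 5.54, 5.83 and 5.64 under the triple combination, against 5.56, 5.56 and 5.30 under pomalidomide plus dexamethasone. With pomalidomide, it was 5.54, 5.58 and 5.75 when filanesib was added, against 5.58, 5.36 and 5.36 when it was not. In both pairs the arrays of the groups overlapped. With dexamethasone, it was 5.94, 5.68 and 5.69 when filanesib was added, against 5.63, 5.46 and 5.48 when it was not. Filanesib alone gave 5.93, 5.75 and 5.83, against 5.59, 5.63 and 5.50 in control tumours. These last pairs did not overlap. MRPL51 averaged 5.72 ± 0.14 with filanesib and 5.50 ± 0.11 without it (SD, n = 12 each), a log2 difference of 0.22 ± 0.056 (SE), or 1.17-fold (limma, adjusted p = 0.0451). The call is close to the threshold. It was lost in 18 of 24 fits that left out 1 array, in which the adjusted p reached 0.105, and the difference stayed between 0.20 and 0.24 in all 24.

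Other members were higher with filanesib without passing the test, and those named here are not a complete order by p. MRPL18, whose bacterial counterpart binds 5S ribosomal RNA, differed by 0.21 ± 0.064 (limma, adjusted p = 0.133). MRPS5, a small-subunit protein at the messenger RNA entry side in bacteria, differed by 0.18 ± 0.068. MRPL1, the counterpart of the protein of the mobile stalk next to the exit site, differed by 0.16, and MRPL3, a core protein near the catalytic centre, by 0.15. MRPL54 had the most negative difference, at -0.18 ± 0.10. With limma's 95% intervals, every one of the 73 differences lay within 1.5-fold in either direction.

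**Figure D2:**
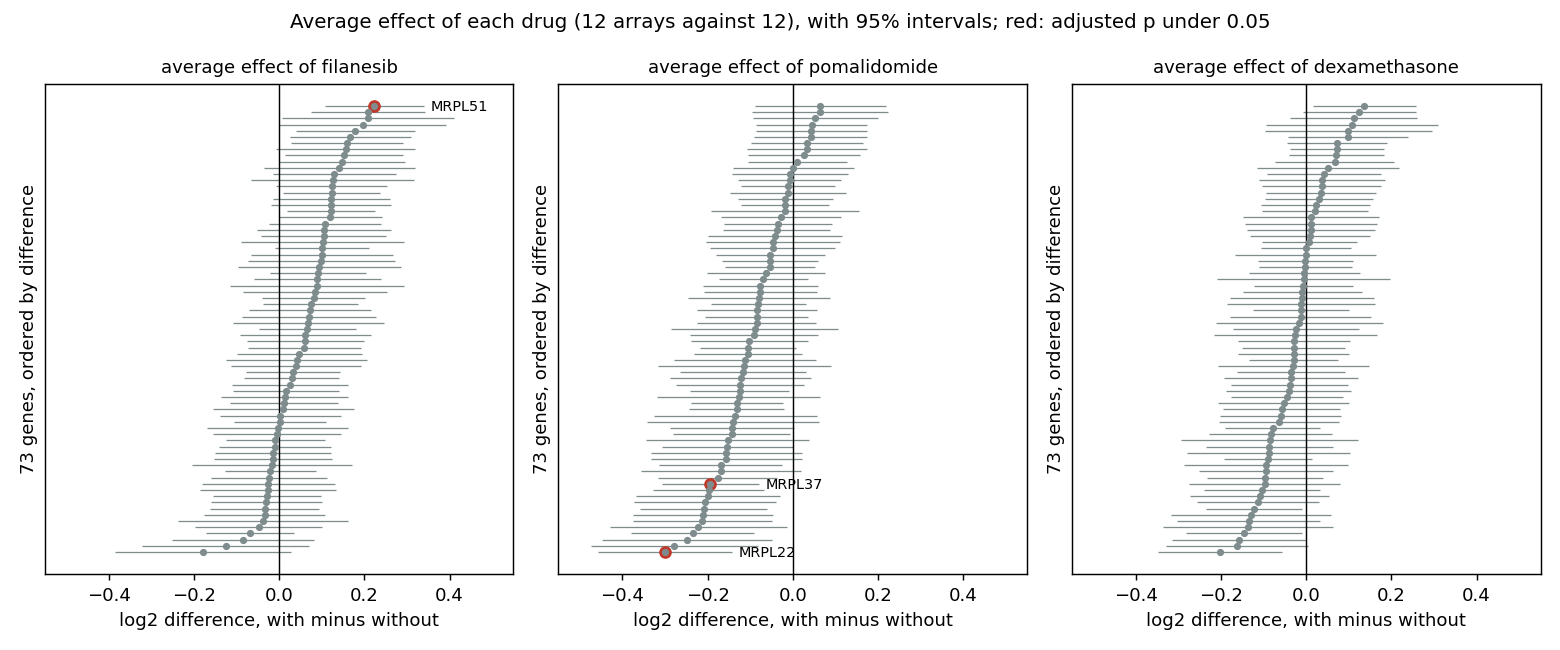
Average log2 difference with minus without each drug (horizontal axis) for the 73 genes, ordered by difference within each panel; points are estimates, lines 95% intervals, and red rings mark adjusted p under 0.05. MRPL51 is the 1 gene past the threshold for filanesib, MRPL22 and MRPL37 the 2 for pomalidomide, and dexamethasone has none.

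The median under filanesib varied with the background. The median difference of the 73 genes was 0.006 when filanesib was added to pomalidomide plus dexamethasone (37 genes above 0), 0.014 when added to pomalidomide (37 genes), 0.049 when added to dexamethasone (51 genes) and 0.137 when given alone against control (63 genes). The cytosolic ribosomal protein genes (45 measured) had a median of 0.051 in this last pair and -0.004 in the average effect. Of the 73 genes, 16 (21.9%) had a positive difference in all 4 backgrounds, against 10.5% of all genes, and 1 (1.37%) a negative one in all 4, against 8.36%. These shares were not taken over the bright genes, which leaned the same way in the average effect. The largest of these medians leaned on 1 array. Without the first filanesib array, the median of filanesib against control was 0.077, with 56 of the 73 genes above 0.

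Against control, filanesib alone changed no member and no gene of the array at an adjusted p under 0.05 (background 0%), while 8 members were higher and 0 lower at an unadjusted p under 0.05 in limma. The smallest p-values belonged to MRPS10 (0.39 ± 0.14), MRPL40 (0.51 ± 0.19) and MRPL39 (0.31 ± 0.12), each with an adjusted p of 0.999. MRPS10 is a small-subunit protein with a bacterial counterpart, and MRPL39 and MRPL40 are large-subunit proteins without one. The 3 filanesib arrays lay wholly above the 3 control arrays for 10 members, among them MRPL3, MRPL51, MRPS18A and MRPS22, and wholly below for none. These are 12.8% of the members, against 10.8% of all genes whose groups did not overlap in either direction.

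**Figure D3:**
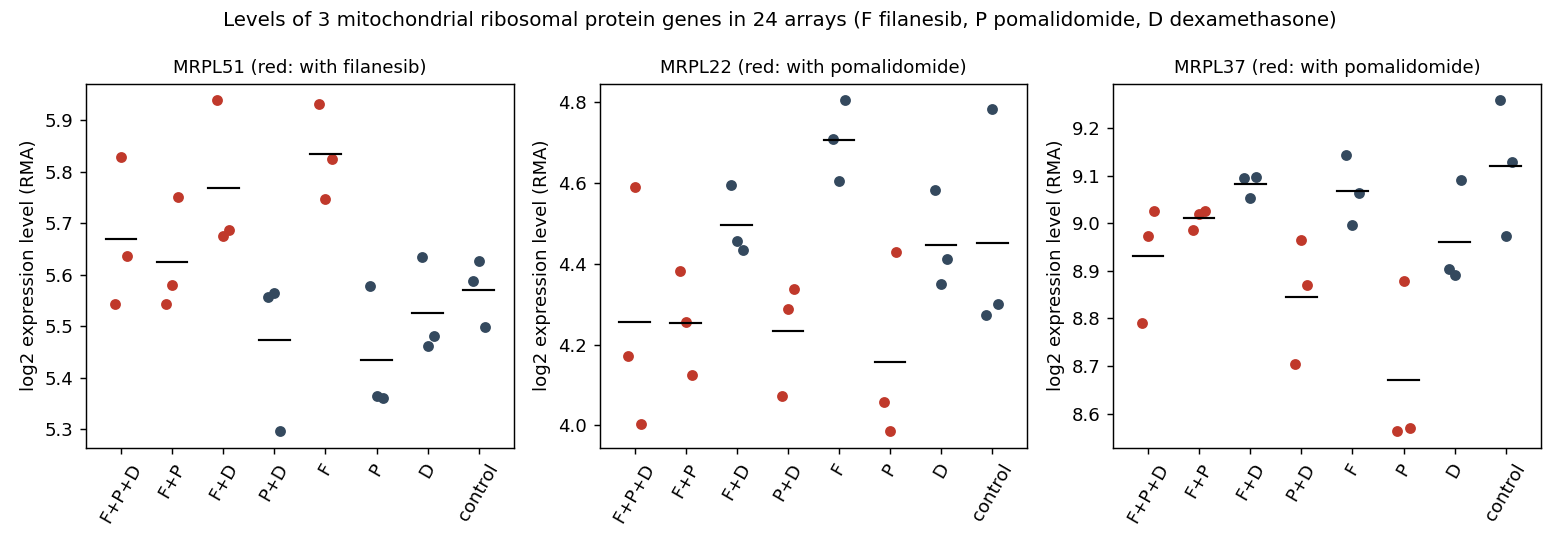
Log2 expression level (vertical axes, which do not start at 0) of MRPL51, MRPL22 and MRPL37 in 24 arrays; each point is 1 array, bars are group means of 3 arrays, and red points mark arrays with the drug named in the panel title. MRPL51 spans 5.54 to 5.94 with filanesib and 5.30 to 5.64 without it, MRPL22 3.99 to 4.59 with pomalidomide and 4.27 to 4.81 without it, and MRPL37 8.56 to 9.03 with pomalidomide and 8.89 to 9.26 without it.

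Pomalidomide was set against its absence in the same way. Over its 4 backgrounds, 2 of the 78 members fell, MRPL22 and MRPL37, and none rose, where 2.65% of all genes fell. The share of members that fell was thus close to that of all genes. As a list, the 73 genes had a median difference of -0.089, against -0.006 over all genes and -0.024 over the bright genes. The difference was above 0 for 11 genes (15.1%), against 47.5% of all genes and 41.3% of the bright genes. The median was -0.114 in the small subunit (3 of 23 genes above 0) and -0.077 in the large (8 of 50). At an unadjusted p under 0.05, 18 members were lower and 0 higher, again without the share over all genes beside this count. Without replicates 1 and 3 of pomalidomide alone, the median was -0.086 and 9 of the 73 genes lay above 0.

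MRPL22 encodes a large-subunit protein whose bacterial counterpart lines the exit tunnel for the growing chain. Its level was 4.17, 4.59 and 4.0 under the triple combination, against 4.60, 4.46 and 4.43 under filanesib plus dexamethasone. With filanesib, it was 4.38, 4.26 and 4.12 when pomalidomide was added, against 4.71, 4.61 and 4.81 when it was not. The second pair was fully separated, and in the first 1 array of the triple combination was as high as the others. With dexamethasone, it was 4.07, 4.29 and 4.34 when pomalidomide was added, against 4.58, 4.35 and 4.41 when it was not. Pomalidomide alone gave 4.06, 3.99 and 4.43, against 4.27, 4.78 and 4.30 in control tumours. The pair with dexamethasone was separated by a narrow gap, and the pair with control overlapped. MRPL22 averaged 4.22 ± 0.19 with pomalidomide and 4.53 ± 0.18 without it (SD, n = 12 each), a log2 difference of -0.30 ± 0.076 (SE), or 0.81-fold (limma, adjusted p = 0.0214). The call held in all 24 fits that left out 1 array, with an adjusted p of 0.0059 to 0.0482. MRPL22 is one of the dimmest members, at a mean of 4.38, where all probe sets have a median of 3.68.

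MRPL37, a large-subunit protein that mitochondria gained and a relative of MRPS30, is one of the brightest members. Its level was 8.79, 8.97 and 9.03 under the triple combination, against 9.10, 9.05 and 9.10 under filanesib plus dexamethasone. With filanesib, it was 8.99, 9.02 and 9.03 when pomalidomide was added, against 9.14, 9.0 and 9.06 when it was not. The first pair did not overlap and the second did. With dexamethasone, it was 8.70, 8.97 and 8.87 when pomalidomide was added, against 8.90, 8.89 and 9.09 when it was not. Pomalidomide alone gave 8.56, 8.88 and 8.57, against 9.26, 8.97 and 9.13 in control tumours. The 2 lowest values of all 24 arrays are replicates 1 and 3 of pomalidomide alone. MRPL37 averaged 8.86 ± 0.17 with pomalidomide and 9.06 ± 0.10 without it (SD, n = 12 each), a log2 difference of -0.19 ± 0.055, or 0.87-fold (limma, adjusted p = 0.0401). Without replicates 1 and 3 of pomalidomide alone, the difference was -0.14 (adjusted p = 0.177), and the call was also lost in 16 of 24 fits that left out 1 array.

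MRPL44, which has a ribonuclease III-like fold and sits near the tunnel exit, missed the threshold. Filanesib plus pomalidomide gave 6.99, 6.82 and 7.05, against 7.59, 7.07 and 7.38 under filanesib. Pomalidomide alone gave 6.72, 6.79 and 6.88, against 7.29, 7.30 and 7.11 in control tumours. Neither of these pairs overlapped, while the pairs in the presence of dexamethasone differed by -0.09 (beside filanesib) and -0.02. The average difference was -0.23 ± 0.070 (limma, adjusted p = 0.0525). Its second probe set, at a mean level of 2.14, gave 0.02. That probe set lay below the median of all probe sets, so the gene's value rests on 1 probe set.

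Below the threshold, the difference with pomalidomide was -0.20 for MRPL16, a counterpart of a protein at the transfer RNA binding sites, with an adjusted p of 0.0734 in limma. It was -0.28 for MRPL42, -0.21 for MRPS26 and -0.21 for MRPS12, the small-subunit protein of the decoding centre, with adjusted p-values of 0.10, 0.106 and 0.148. MRPS30 had the most positive difference of the 73 genes, at 0.065.

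The median under pomalidomide also varied with the background. It was below 0 in all 4 with the deposited normalization, and above 0 against control (0.068, with 47 of the 73 genes above 0) after quantile normalization again. As deposited, the median difference of the 73 genes was -0.090 when pomalidomide was added to filanesib plus dexamethasone (17 genes above 0), -0.189 when added to filanesib (8 genes), -0.047 when added to dexamethasone (28 genes) and -0.042 against control (27 genes). The cytosolic ribosomal protein genes had medians of 0.042, -0.130, 0.011 and -0.001 in the same order. Against control, the bright genes had a median of -0.109, further below 0 than the 73 genes. Of the 73 genes, 22 (30.1%) had a negative difference in all 4 backgrounds, against 12.1% of all genes, and 1 (1.37%) a positive one in all 4, against 10.1%. Here too the shares were not taken over the bright genes, which also leaned below 0 in the average effect. The filanesib arrays, in which the members were high, serve as the comparison for the largest of these medians and as the drug group in the largest filanesib median, so the medians of both drugs share these arrays.

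**Figure D4:**
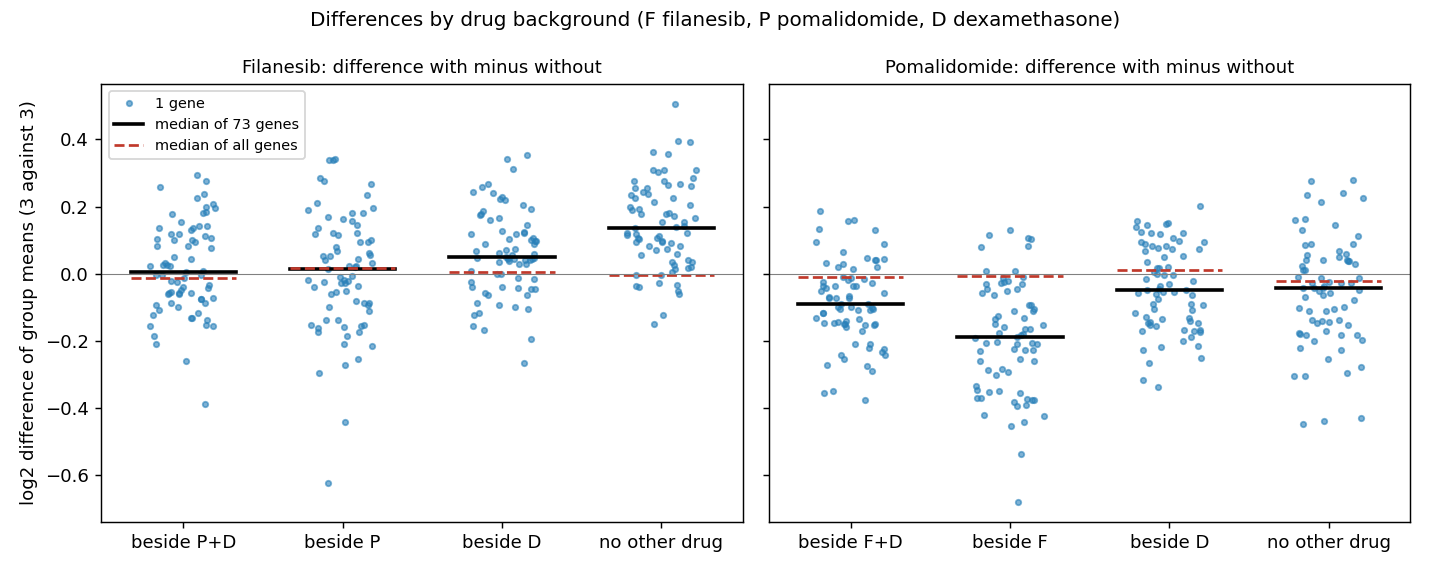
Log2 difference of group means, 3 arrays with the drug minus 3 without it (vertical axis), for the 73 genes in each background of the other drugs (horizontal axis); black lines are the medians of the 73 genes and dashed red lines those of all genes. For filanesib the median of the 73 genes is 0.006 beside pomalidomide plus dexamethasone and 0.137 with no other drug, and for pomalidomide it lies below 0 in all 4 backgrounds as deposited (above 0 with no other drug after quantile normalization again, at 0.068), lowest beside filanesib at -0.189.

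Against control, pomalidomide alone lowered 1 member, MRPL37, where 1.47% of all genes fell. Its level was 8.67 ± 0.18 under pomalidomide and 9.12 ± 0.14 in control tumours (SD, n = 3 each), a log2 difference of -0.45 ± 0.11 (limma, adjusted p = 0.0353). The call was lost without replicate 1 or 3 of pomalidomide (adjusted p = 0.0959 and 0.102) and without replicate 1 or 3 of control (0.169 and 0.134). MRPL44 followed at -0.44 ± 0.14 (adjusted p = 0.103) and MRPL42 at -0.43 ± 0.19. The groups of 3 did not overlap for 7 members, 2 higher (MRPL14 and MRPL39) and 5 lower (MRPL37, MRPL44, MRPS14, MRPS16 and the pseudogene MRPS31P5). These are 8.97% of the members, against 15.6% of all genes.

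Of the cell type markers measured, only CD68, CD38 and IRF4 passed the test for the average effect of pomalidomide. CD68 rose by 0.99 ± 0.09 and CD38 by 0.18 ± 0.05, while IRF4, the myeloma transcription factor, fell by 0.54 ± 0.11 (limma, adjusted p = 4.3e-07, 0.0304 and 0.0056). The mean level of the 5 macrophage markers measured ran from 4.43 to 4.73 in the arrays with pomalidomide and from 4.29 to 4.58 in those without it. CD68 is part of this mean and was the only macrophage marker to pass, so the mean does not show a shift of the others. Apart from CD68 these markers were dim (median of the 5 at 3.07). The 6 plasma cell markers averaged 9.92 to 10.22 with pomalidomide and 10.05 to 10.28 without it. Their part in the members' values was not tested.

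For dexamethasone no member was called, where 0.0134% of all genes were called in either direction. At an unadjusted p under 0.05 in limma, 1 member was higher and 4 were lower. The median difference of the 73 genes was -0.024, against -0.001 over all genes, and 23 of them (31.5%) lay above 0, against 49.6% of all genes. The smallest p belonged to MRPL35, a counterpart of a bacterial large-subunit protein, at -0.20 ± 0.071 (adjusted p = 0.531). MRPL27, whose bacterial counterpart reaches into the peptidyl transferase centre, followed at 0.14 ± 0.058, and MRPS27 at -0.12 ± 0.055. All 73 intervals lay within 1.5-fold in either direction. Dexamethasone against control likewise called no member (background 0.00672%), and 0 members had an unadjusted p under 0.05. Its smallest p-values belonged to MRPL44 (-0.26 ± 0.14), MRPL27 (0.21 ± 0.12) and MRPL35 (-0.24 ± 0.14).

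The combinations were set against the same control arrays, which all 7 comparisons with control share. Filanesib plus pomalidomide called no member (background 0.141%), and 2 were lower at an unadjusted p under 0.05. They were MRPS2 (-0.31 ± 0.13) and MRPL54 (-0.46 ± 0.20), followed by MRPL44 (-0.28 ± 0.14). Filanesib plus dexamethasone called no member and no gene of the array (background 0%), and 3 members were higher at an unadjusted p under 0.05. They were MRPL19 (0.32 ± 0.11), MRPL18 (0.29 ± 0.13) and MRPL39 (0.24 ± 0.12). Pomalidomide plus dexamethasone called no member (background 0.161%), and 2 were lower at an unadjusted p under 0.05, MRPL37 (-0.27 ± 0.11) and MRPS27 (-0.23 ± 0.11). The triple combination called no member (background 0.255%). At an unadjusted p under 0.05 in limma, MRPL44 (-0.30 ± 0.14) and MRPL34 (-0.42 ± 0.19) were lower and MRPL50 (0.31 ± 0.14) was higher. The median difference of the 73 genes was -0.035, 0.040, -0.053 and -0.039 in these 4 comparisons, in the order given.

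The triple combination was also set against pomalidomide plus dexamethasone, the comparison closest to the question of the series. No member was called (background 0.00672%), 2 were higher and 0 lower at an unadjusted p under 0.05 in limma, and the 73 genes had a median difference of 0.006, with 37 above 0. The smallest p-values belonged to MRPL42P5 (0.81 ± 0.31, adjusted p = 0.515), MRPL14 (0.30 ± 0.13) and MRPL23 (-0.21 ± 0.10), whose bacterial counterpart stands at the tunnel exit. The groups of 3 did not overlap for 4 members, MRPL3, MRPL14 and MRPS5 higher and MRPL23 lower, which is 5.13% of the members against 15.8% of all genes. For 69 of the 73 genes the 95% interval lay within 1.5-fold in either direction.

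Whether 1 drug's effect on a member depended on another was tested directly. No member and no gene passed for filanesib by pomalidomide (background 0%), for filanesib by dexamethasone (background 0%) or for pomalidomide by dexamethasone (background 0%). At an unadjusted p under 0.05 in limma, 4, 3 and 2 members differed, in that order. The smallest p-values belonged to MRPL39 (-0.34 ± 0.12), MRPL54 (-0.53 ± 0.20) and MRPL42P5 (0.78 ± 0.31) for the first. They belonged to MRPL40 (-0.50 ± 0.19), MRPL9 (-0.25 ± 0.11) and MRPL14 (0.29 ± 0.13) for the second, and to MRPL44 (0.36 ± 0.14), MRPS31 (0.44 ± 0.19) and MRPS31P5 (0.21 ± 0.11) for the third. The differences in list medians between backgrounds given above were not called for any single gene.

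Several members known from human disease or from paralogue families had small differences. MRPS22 and MRPS16, both mutated in inherited defects of mitochondrial translation, had average differences of -0.01 and 0.09 for filanesib, 0.01 and -0.05 for pomalidomide and 0.07 and 0.01 for dexamethasone. MRPS34, which stabilises the small subunit, had 0.05, -0.05 and -0.04. The related proteins MRPS18A and MRPS18B, which occupy different subunits, had 0.12 and 0.03 for filanesib and -0.02 and -0.08 for pomalidomide. MRPL33 and MRPL36, small proteins with bacterial counterparts, had -0.03 and 0.04 for filanesib and -0.03 and -0.08 for pomalidomide. MRPL41 had -0.13, -0.09 and -0.02 for the drugs in that order. None of these passed the test, and several of those close to 0 changed sign under other settings.

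In all, 4 members had more than 1 probe set, and these did not always give the same difference. The second probe set of MRPS16, at a mean level of 5.97, gave -0.06 for filanesib, -0.25 for pomalidomide and -0.15 for dexamethasone. That of MRPS2, at 5.26, gave -0.09 for pomalidomide and -0.12 for dexamethasone. The 7 probe sets of MRPS18B held identical values, and MRPL44 is described above.

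The rest of the mitochondrial translation machinery was read from lists, by count and median. Of the 3 subunits with other symbols (DAP3, PTCD3 and CHCHD1), none passed in any average effect, and their medians were 0.092 for filanesib and -0.044 for pomalidomide. Of 22 assembly and rRNA modification genes, GTPBP10, a GTPase of large-subunit assembly, rose with filanesib (0.26 ± 0.060, limma, adjusted p = 0.0287). MRM1, a methyltransferase of the large ribosomal RNA, fell with pomalidomide (-0.30 ± 0.086, adjusted p = 0.0418). Without replicates 1 and 3 of pomalidomide alone, neither passed, at 0.23 (adjusted p = 0.113) and -0.21 (adjusted p = 0.165). The median of these 22 genes was 0.047 with filanesib (18 above 0) and -0.064 with pomalidomide (3 above 0).

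Of 11 translation factors and related genes, MTRF1L, a release factor, fell with pomalidomide (-0.26 ± 0.067, limma, adjusted p = 0.0222). Without replicates 1 and 3 of pomalidomide alone, the difference of MTRF1L was -0.26. The median of the 11 was 0.079 with filanesib and -0.030 with pomalidomide. Of 7 genes of mitochondrial DNA transcription and its regulators, NRF1, a transcription factor of many nuclear genes for mitochondrial proteins, rose with filanesib (0.27 ± 0.055, adjusted p = 0.0094), with a median of 0.044 for the 7. With pomalidomide none of the 7 passed in the average effect, and their median was -0.038. The list of mitochondrial aminoacyl-tRNA synthetases had only 2 genes measured, QRSL1 and GATB, which are not synthetases themselves. Neither passed, and the list gives no value for a synthetase. Of the 45 cytosolic ribosomal protein genes, none passed with filanesib and RPS26 fell with pomalidomide (-0.44 ± 0.092, limma, adjusted p = 0.0049). Without replicates 1 and 3 of pomalidomide alone, the difference of RPS26 was -0.44. The median of the 45 genes was -0.004 with filanesib and -0.012 with pomalidomide, with 21 and 14 of the 45 above 0. No gene of these lists passed with dexamethasone.

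In pomalidomide alone against control, 2 of the 7 regulators fell, MYC (-0.51 ± 0.13, limma, adjusted p = 0.0404) and ESRRA (-0.62 ± 0.16, adjusted p = 0.0453), with a median of -0.200 for the 7. MYC is a growth transcription factor and ESRRA a nuclear receptor that acts on genes of energy metabolism. Of the 22 assembly genes MRM2, a methyltransferase of the large ribosomal RNA, fell (-0.54 ± 0.14, limma, adjusted p = 0.0465), with a median of -0.170 for the 22. In this comparison 1.47% of all genes fell, and the median over all genes was -0.021. The bright genes also had a median below 0, given above, and 6 of the 7 and 20 of the 22 genes are bright. These counts and medians are therefore not read as particular to the lists. Without replicates 1 and 3, 1 array of pomalidomide alone is left, so whether a call holds cannot be judged there. The differences were then -0.35 for MYC, -0.32 for ESRRA and -0.47 for MRM2.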

How the data were processed

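Each deposited value is the log2 level of a probe set. Per the submitters' processing notes, the authors used RMA in Affymetrix Expression Console, whose versions the sources used here do not give. The probe table named 1 gene for 16098 of 53617 probe sets, and 779 genes had several, of which the one with the highest mean was used. Of the 73 subunit genes, 69 are listed with a coding accession and 4 with a non-coding one (MRPL10, MRPL42, MRPS2 and MRPS14). MRPL12, MRPS18C and MRPS36 were among the genes chosen for mention and are not analysed here.

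Group means of 14884 genes were estimated over all 24 arrays with limma 3.58.1 in R 4.3.3 (lmFit and eBayes, 16 residual degrees of freedom). Two-sided p-values were adjusted by Benjamini-Hochberg over all genes in each of 14 comparisons, with a threshold of 0.05. An average effect is the mean of the 4 differences with and without a drug. Precision is set by how few arrays there are: the median SE of the 73 genes was 0.068 for an average effect and 0.137 between 2 groups. Bright genes are the 7442 genes above the median level.

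The members, lists and tests were chosen with earlier results of these data known. Named genes were the members past the threshold or, where none passed, the 3 of smallest p, the 4 brightest and dimmest, the 4 with the widest range of group means, and a set list of members known from disease or structure. Members that follow a call in order of p and those at the extremes of a difference, and the bright genes as a second background, were chosen after their values were seen. The fit was tested on simulated data, with 100 genes changed at each of 2 sizes. All changes were upward and the noise was drawn independently for each gene, whereas the members often deviated together within an array. The rates that follow may therefore differ for the members. At a log2 change of 0.25, 30 of 100 were called for the average effect of pomalidomide. For pomalidomide against control 0 were called at that size. At 0.5, 94 and 27 were called, in the same order. A member without a call may therefore still have changed by such amounts. A search of the members' promoters for motifs is not analysed here, since the sequence tables used here are those of the mouse. Normalization, filters, weights, probe set choice, a replicate block and left-out arrays were tried as alternatives.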

Additional observations from a re-analysis of the deposited data

How the results depend on the processing

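The count of members called was sensitive to the setting where it was above 0. For filanesib, MRPL51 was the 1 call, and 0 members were called after quantile normalization again (adjusted p = 0.088), centring on cytosolic ribosomal protein genes (0.0774), eBayes with trend and robust (0.0763), with a 1.5-fold minimum, or without replicates 1 and 3 of pomalidomide alone (0.0617). For pomalidomide, 1 member was called, MRPL22, after centring on the array median (MRPL37 at 0.0706), after centring on cytosolic genes (0.203) and without those 2 arrays (0.177). Array weights called 5 members and 1210 genes, against 329 genes higher and 394 lower without them, and the 1.5-fold minimum called 0 members and 75 genes. For pomalidomide against control 0 members were called after quantile normalization again, after either centring or with array weights. The same held for the 1.5-fold minimum and for the fit to the compared groups only. In these, MRPL37 lay between -0.33 and -0.45, at an adjusted p of up to 0.457 in limma. Leaving out those 2 arrays kept 1 array of pomalidomide alone, and MRPL37 was then at -0.24. The list median of -0.042 for pomalidomide against control became 0.068 after quantile normalization again. All other comparisons called 0 members under every alternative. Leaving out 1 array gave 0 to 1 member for filanesib, 1 to 5 for pomalidomide (5 without replicate 3 of pomalidomide alone) and 0 to 1 for pomalidomide against control. The list median then lay between 0.043 and 0.087 for filanesib, between -0.111 and -0.062 for pomalidomide, and between -0.070 and 0.098 for the triple combination against pomalidomide plus dexamethasone. Quantile normalization again gave 0.030 for filanesib (42 of 73 genes above 0, against 52), -0.073 for pomalidomide and -0.0090 for the triple combination against pomalidomide plus dexamethasone. The cause of these changes was not tested. MRPL44 passed for pomalidomide with dim genes left out (0.0461), array weights (0.0130) and coding accessions only (0.0431).

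With the replicate number as a replicate block, filanesib called 0 members (MRPL51 at an adjusted p of 0.0565) and pomalidomide 1 (MRPL37 at 0.0554). The numbers did not pair the arrays: 84 pairs with the same number had a mean correlation of -0.021 (-0.316 to 0.305) in their deviations from group means, and 168 other pairs one of 0.010.

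Of the 76 differences of named members, values that changed sign were all close to 0 apart from those of second probe sets. For filanesib they were MRPS30 (-0.010), MRPS18B (-0.014) and MRPL36 (-0.0067) after quantile normalization again, MRPS12 (0.0062) and MRPS22 (0.00088) after median centring, MRPS12 (0.0096), MRPS22 (0.010) and MRPL33 (0.028) with array weights, MRPS16 (-0.062) with the lowest probe set, and MRPS22 (0.0057) and MRPL33 (0.012) without the 2 pomalidomide arrays. For pomalidomide they were MRPS18A (0.013) and MRPL33 (0.0023) after centring on cytosolic genes, MRPS18A (0.0013) with array weights, MRPL44 (0.021) with the lowest probe set, and MRPS22 (-0.0043) and MRPS18A (0.00032) without those arrays. For dexamethasone they were MRPS16 (-0.0031) and MRPL33 (-0.0045) after quantile normalization again, MRPS16 (-0.018) and MRPL33 (-0.017) after centring on cytosolic genes, MRPS16 (-0.0087) and MRPL41 (0.016) with array weights, MRPS16 with the mean (-0.073) and the lowest (-0.153) of its probe sets, and MRPS16 (-0.0061) and MRPL41 (0.012) without those arrays. With its lowest probe set MRPL44 turned to 0.039 for dexamethasone, 0.0014 for filanesib plus pomalidomide and 0.103 for the triple combination against control, and to -0.029 for pomalidomide by dexamethasone. When 1 array was left out, signs also varied for filanesib in MRPS12 (-0.047 to 0.034), MRPS22 (-0.028 to 0.017), MRPS30 (-0.0019 to 0.078), MRPL33 (-0.058 to 0.0036) and MRPL36 (-0.017 to 0.079). They varied for pomalidomide in MRPS22 (-0.016 to 0.036), MRPS18A (-0.035 to 0.0051) and MRPL33 (-0.066 to 8.98e-05), and for dexamethasone in MRPS12 (-0.045 to 0.028), MRPS16 (-0.022 to 0.028), MRPL41 (-0.061 to 0.047), MRPL33 (-0.019 to 0.047) and MRPL36 (-0.0064 to 0.089).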
